A study of Homo sapiens with 5 samples.

Results

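Glycolysis and hypoxia response genes were followed through nuclei of 5 mixed lung cancer cell lines. The set held 38 genes of the 36601 in the RNA matrix, taken by gene symbol, and all 38 symbols were found once. They cover the alpha subunits of HIF, the glucose transporters and the enzymes from glucose to lactate. They also cover kinases that switch off pyruvate dehydrogenase, and genes that hypoxia is known to induce. They received 1278225 of the 95455518 UMIs of the 80% library, or 1.34%, and GAPDH alone took 28.1% of those. A median nucleus carried 176 UMIs on these genes, 1.31% of its RNA.

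Cells of the adenocarcinoma lines A549, HCC827, H838, H1975 and H2228 were grown apart in RPMI medium with serum until nearly confluent, then mixed, and no line received a treatment or a genetic change. Nuclei were captured with the 10× Multiome protocol, which reads RNA and open chromatin (ATAC) of a nucleus under a shared barcode, and the GEMs (droplets) of the run were split, 20% of them to a first portion and 80% to a second. Each portion gave 1 RNA and 1 ATAC library, so no value here has a replicate library and no p-value is given; intervals are exact 95% intervals for counting error only. The 80% portion held 6557 nuclei and 63920767 ATAC counts, and the 20% portion held 1127 further nuclei after the 159 barcodes called in both portions had been left out.

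The cell line of a nucleus is not given in the labels used here, so nuclei were grouped into 6 RNA clusters made without the 38 genes and without 48 further genes of the same pathways. Cluster 0 (2467 nuclei) was led by CDH11, cluster 1 (1465 nuclei) by ITPR2 and CARD18 among others, cluster 3 (473 nuclei) by PEG10 among others, and cluster 4 (364 nuclei) by TAGLN and MGP. Cluster 2 (1460 nuclei) was A549-like, with all 5 aldehyde dehydrogenase and aldo-keto reductase markers at their highest there. Cluster 5 (328 nuclei) was HCC827-like, with all 4 genes around the EGFR amplification at their highest there. Clusters numbered 6 and the lines 5, so a cluster is not taken as a cell line. Median depth per nucleus was 9142.5 to 17572 UMIs across clusters, doublet calls made up 0.546% to 12.7% of a cluster, and markers of cells that the mixture should lack made up at most 0.00505% of its UMIs. Levels are given as UMIs per 1000000 UMIs of a cluster (CPM), and they are levels in nuclei, where unspliced RNA counts as well. RNA from other nuclei may be part of a low level. ALDH1A1, which led the A549-like cluster at 5357 CPM, was still read at 87.6 to 211 CPM in the other clusters. It had a UMI in 62.8% to 71.7% of their nuclei. RNA from other nuclei, doublets and low expression in those clusters were not told apart.

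As background, glycolysis turns glucose into pyruvate, and lactate dehydrogenase turns pyruvate into lactate with return of the NAD+ that glycolysis needs. Under low oxygen, prolyl hydroxylases of the EGLN family no longer mark the HIF alpha subunits for destruction, and HIF then raises glucose transporters, glycolytic enzymes, pyruvate dehydrogenase kinases, carbonic anhydrases and VEGFA. Many tumour cells, lung adenocarcinoma among them, run glycolysis with oxygen present, and HIF1A is mainly controlled at the protein level, which was not measured here.

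HIF binds a short core, ACGTG or GCGTG, and promoter sequences of 7 genes are shown because their RNA or accessibility carries the differences described here. They are the 250 bases upstream of a RefSeq gene start (GRCh38.p14), 5′ to 3′ along the gene, with every ACGTG or GCGTG on either strand in capitals (CACGT and CACGC on the strand shown); a CACGTG counts for ACGTG once on each strand. The first pair are the 2 lactate dehydrogenase genes and the second the 2 carbonic anhydrases. The last 3 are genes whose RNA was low in 1 cluster, or in clusters 0 and 2 for HK2.
LDHA, chr11:18394313-18394562, plus strand: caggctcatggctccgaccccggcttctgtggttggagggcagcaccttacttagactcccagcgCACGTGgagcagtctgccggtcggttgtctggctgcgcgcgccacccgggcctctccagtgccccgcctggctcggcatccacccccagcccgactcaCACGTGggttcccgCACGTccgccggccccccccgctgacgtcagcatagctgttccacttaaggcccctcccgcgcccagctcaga
LDHB, chr12:21657843-21658092, minus strand: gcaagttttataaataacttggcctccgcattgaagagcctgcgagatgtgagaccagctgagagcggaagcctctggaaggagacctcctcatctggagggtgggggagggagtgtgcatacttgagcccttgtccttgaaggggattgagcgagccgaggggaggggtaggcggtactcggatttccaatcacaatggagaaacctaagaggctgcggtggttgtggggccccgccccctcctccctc
CA9, chr9:35673678-35673927, plus strand: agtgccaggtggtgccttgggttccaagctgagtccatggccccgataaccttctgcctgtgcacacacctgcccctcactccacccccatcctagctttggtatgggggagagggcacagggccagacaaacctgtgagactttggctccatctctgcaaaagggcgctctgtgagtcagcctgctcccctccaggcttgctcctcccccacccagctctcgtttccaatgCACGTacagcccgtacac
CA12, chr15:63381847-63382096, minus strand: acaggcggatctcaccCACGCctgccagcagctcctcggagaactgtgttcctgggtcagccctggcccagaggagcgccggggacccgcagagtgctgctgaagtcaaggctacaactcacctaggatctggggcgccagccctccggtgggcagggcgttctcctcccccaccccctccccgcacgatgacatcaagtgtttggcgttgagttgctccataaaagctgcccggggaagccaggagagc
HK2, chr2:74833877-74834126, plus strand: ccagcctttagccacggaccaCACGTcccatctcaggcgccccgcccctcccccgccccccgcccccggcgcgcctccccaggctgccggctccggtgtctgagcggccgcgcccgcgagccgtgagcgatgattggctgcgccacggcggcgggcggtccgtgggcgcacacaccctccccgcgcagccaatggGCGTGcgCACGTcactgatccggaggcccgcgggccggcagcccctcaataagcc
ENO2, chr12:6914330-6914579, plus strand: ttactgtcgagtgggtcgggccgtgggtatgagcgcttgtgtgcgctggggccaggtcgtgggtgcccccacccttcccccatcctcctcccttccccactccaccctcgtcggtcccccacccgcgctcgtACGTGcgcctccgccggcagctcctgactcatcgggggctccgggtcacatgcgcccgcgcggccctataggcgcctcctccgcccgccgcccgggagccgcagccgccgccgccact
PDK3, chrX:24465036-24465285, plus strand: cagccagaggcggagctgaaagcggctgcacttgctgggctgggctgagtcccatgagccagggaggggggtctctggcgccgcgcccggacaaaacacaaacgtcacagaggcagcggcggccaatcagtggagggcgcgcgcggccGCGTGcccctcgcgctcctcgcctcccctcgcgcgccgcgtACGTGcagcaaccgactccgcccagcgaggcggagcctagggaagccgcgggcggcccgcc
Upstream of LDHA the core ACGTG was found 5 times, and upstream of LDHB neither core was found. CA9 held a single ACGTG core 18 bases before the start, and CA12 held a single GCGTG core 234 bases before it. With the 50 bases after the start included, LDHB had 1 GCGTG and CA12 had 2. Of the 38 genes, 33 had a promoter in the RefSeq table, with 60 starts between them, and windows of 300 bases (250 upstream and 50 after the start) were searched for all of them. ACGTG was in 40.0% of these promoters, against 21.4% of all 35116 promoters and 26.0% of the promoters of genes that passed the RNA filter. For GCGTG the shares were 43.3%, 36.5% and 49.1%, and for either core 68.3%, 48.4% and 61.5%. By gene, 20 of the 33 (60.6%) had ACGTG at 1 start or more, and 33.6% of genes that passed the RNA filter did. No such share by gene was computed for GCGTG. Genes known to be induced by hypoxia were put in the set, so it was not chosen blind to HIF. The set had 60 starts for 33 genes and the genes that passed the filter 12334 for 8337, so a gene of the set had more starts to match at. Some windows of the set also overlap, as for HK1 and PFKM. A match is a stretch of letters, and binding was not measured.

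The summed share of RNA on the 38 genes differed modestly between clusters. It was 1.32% of UMIs in cluster 0, 1.53% in cluster 1, 1.21% in cluster 2, 1.29% in cluster 3, 1.196% in cluster 4 and 1.39% in cluster 5. Cluster 1 was highest, with an interval of 1.5232% to 1.5342%, and clusters 2 and 4 were lowest and close to each other. Between nuclei the share ran from 0.288% to 3.10%, and differences between clusters made up 14.7% of its variance over nuclei. Without GAPDH, ENO1, LDHA and LDHB, the 4 genes with the most UMIs, cluster 1 was the lowest of the 6 at 0.428%, and the others lay between 0.508% and 0.564%. Of these 4 genes, LDHB and ENO1 were highest in cluster 1, and GAPDH and LDHA were not. S and G2/M genes took 0.233% and 0.386% of UMIs in cluster 1, the lowest of the clusters, and mitochondrial genes took 0.655% there against 0.498% to 1.51% elsewhere; the part of these differences in the share was not tested.

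**Figure D1:**
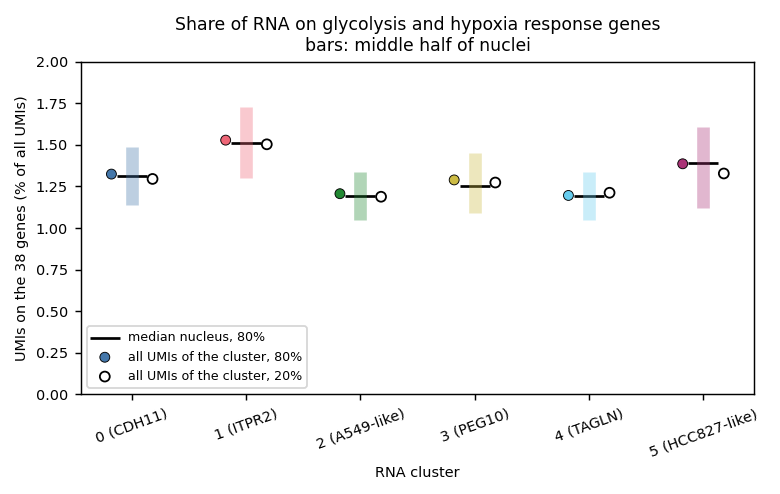
Percent of UMIs on the 38 genes (y axis, from 0) in each RNA cluster (x axis). Filled points are all UMIs of a cluster in the 80% library and open points in the 20% library, black dashes the median nucleus and coloured bars the lower to the upper quartile of nuclei. Cluster 1 is highest in both libraries (1.53% and 1.5036%), and the quartile bars of clusters 2 and 4 run from 1.05% to 1.34%.

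Of the 38 genes, 36 had a mean of at least 10 CPM over the clusters, and 11 of the 36 differed at least 4-fold between their highest and lowest cluster. Over all genes that passed this filter, 2527 of 10585 did so (23.9%). The median range was 2.66-fold for the 36 genes and 2.34-fold for all genes tested. Only CA12 and LDHB, 2 of 36, stood at least 2-fold above every other cluster, against 9.82% of all genes tested. The 11 were SLC2A3, HK2, ENO2, PFKFB4, LDHB, PDK3, CA9, CA12, VEGFA, ADM and EGLN3; HIF1A (3.93-fold) and SLC2A1 (3.83-fold) fell just short. ALDOC and ANKRD37 were under the filter. The highest cluster was the same in the 20% library for 29 of the 36 genes, against 74.6% of all genes tested, and the median absolute difference between the libraries was 0.12 on the log2 scale over genes and clusters. Cluster 2 was the lowest cluster for 18 of the 38 genes (16 of the 36 that passed), whereas it was lowest for 17.0% of all genes tested. Some margins were narrow: the next lowest cluster was 1.01-fold higher for PGK1 and BNIP3 and 1.05-fold for PFKM and LDHA. In the 20% library another cluster was lowest for HK1, PFKM, ALDOA, LDHA and ANKRD37.

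**Figure D2:**
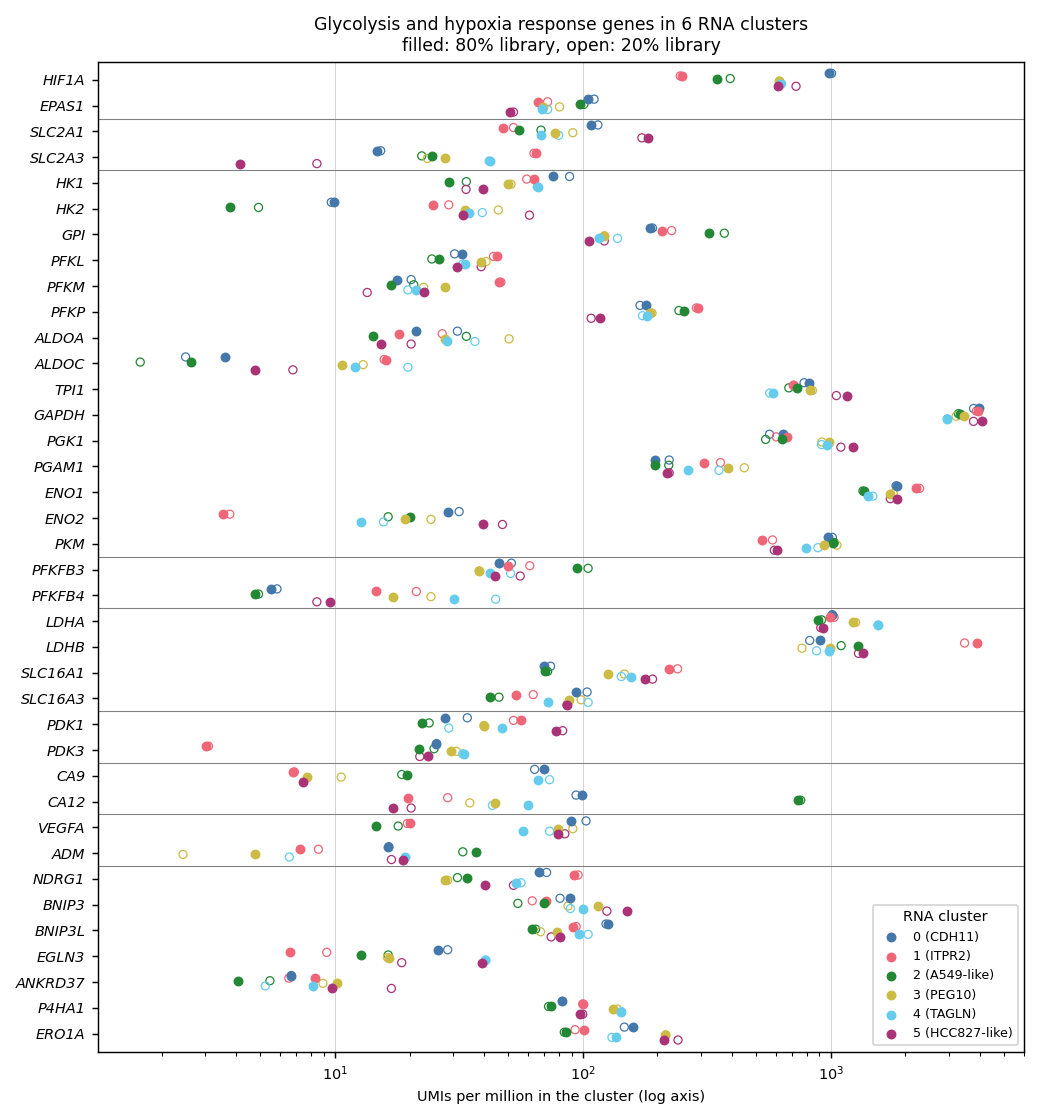
Level of each of the 38 genes (rows, grouped by role) in CPM on a log axis, with a colour for each RNA cluster, filled points for the 80% library and open points for the 20% library; zeros are not drawn. CA12 in cluster 2 (735 CPM) and LDHB in cluster 1 (3885 CPM) stand apart to the right, and PDK3 and ENO2 in cluster 1 and SLC2A3 in cluster 5 stand apart to the left.

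HIF1A encodes the oxygen-regulated HIF-1 alpha subunit. It was read at 987 CPM in cluster 0, 251 in cluster 1, 349 in cluster 2, 616 in cluster 3, 622 in cluster 4 and 612 in cluster 5. Cluster 0 was highest (978 to 997), clusters 3 to 5 could not be told apart by their intervals, and cluster 1 was lowest, with the same order of the extremes in the 20% library (1007 and 247 CPM). EPAS1, which encodes HIF-2 alpha, varied less, at 105 CPM in cluster 0, 66.1 in cluster 1, 97.5 in cluster 2, 69.0 in cluster 3, 68.3 in cluster 4 and 50.9 in cluster 5. Of the UMIs on the pair, HIF1A took 78.2% in cluster 2 and 79.2% in cluster 1, and 89.9% to 92.3% in the other 4. The balance thus leaned least to HIF1A in the clusters where HIF1A was lowest. In cluster 1, ATAC counts within 5 Mb of HIF1A and away from gene starts were also lower than the mean of the other 5 clusters (log2 -0.65, beside -1.34 for its RNA); the part of this in the result was not tested.

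The 2 glucose transporters were high in different clusters. SLC2A1 (GLUT1), the widespread transporter, was at 108 CPM in cluster 0, 47.7 in cluster 1, 55.2 in cluster 2, 77.2 in cluster 3, 68.1 in cluster 4 and 183 in cluster 5. SLC2A3 (GLUT3), a high-affinity transporter best known from neurons, was at 14.8 CPM in cluster 0, 64.8 in cluster 1, 24.6 in cluster 2, 27.8 in cluster 3, 42.4 in cluster 4 and 4.15 in cluster 5. The HCC827-like cluster thus had the most SLC2A1 and the least SLC2A3, and cluster 1 the reverse. Of the UMIs on the pair, SLC2A3 took 57.6% in cluster 1 and 2.22% in cluster 5, and 54.7% and 4.67% in the 20% library. The 15.6-fold range of SLC2A3 rested on 20 UMIs in cluster 5 (interval 2.54 to 6.41 CPM) and was 7.50-fold in the 20% library. In cluster 5, SLC2A3 stood at 14.5% of its level over all nuclei. Leading genes of the other clusters had a median of 13.4% there, with a wide range of 5.90% to 67.1%. Those genes may also be expressed at a low level there, so the median is only a rough guide to RNA from other nuclei. This low level of SLC2A3 and RNA from other nuclei thus cannot be told apart. Around SLC2A1, ATAC counts within 5 Mb stood 0.96 above the mean of the other clusters in cluster 5 (log2), beside 1.35 for its RNA, and 47 of 73 neighbouring genes were also highest there (64.4%, against 13.1% of all genes tested).

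Hexokinase traps glucose in the cell as its phosphate. HK1, the constitutive form, was at 75.5 CPM in cluster 0, 63.8 in cluster 1, 28.8 in cluster 2, 49.9 in cluster 3, 66 in cluster 4 and 39.7 in cluster 5. HK2, the form typical of muscle and tumours, was at 9.91 CPM in cluster 0, 24.9 in cluster 1, 3.79 in cluster 2, 33.4 in cluster 3, 34.7 in cluster 4 and 32.8 in cluster 5. HK2 was thus low in clusters 0 and 2 and alike in clusters 3 to 5, and the A549-like cluster was lowest for both HK1 and HK2. In the 20% library HK1 was at 33.9 CPM in cluster 2 and 33.8 in cluster 5. The related hexokinase gene HKDC1, one of the 48 further pathway genes, was at 60.6 CPM in cluster 2, above HK1 and HK2 there. It was lowest in cluster 1 (20.8) and highest in cluster 5 (84.3). HK2 took 11.6% of the UMIs on HK1 and HK2 in clusters 0 and 2, and 45.3% in cluster 5. Its 56 UMIs in cluster 2 were 22.5% of its level over all nuclei. Leading genes of the other clusters had a median of 22.4% there (range 1.76% to 59.2%). HK2 RNA of the A549-like cluster and RNA from other nuclei thus cannot be told apart. The range of HK2 was 9.16-fold, and 16.9-fold without nuclei called doublets. The second of the 2 peaks at the HK2 start, at chr2:74834894-74835723, had 2.47 ATAC counts per 1000000 in cluster 2 and 5.86 to 16 in the others.

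The enzymes in the middle of the pathway ranged from 1.72-fold for PFKL to 6.11-fold for ALDOC, which was under the filter. GPI, which converts glucose 6-phosphate to fructose 6-phosphate, was at 187 CPM in cluster 0, 209 in cluster 1, 324 in cluster 2, 122 in cluster 3, 116 in cluster 4 and 106 in cluster 5. PFKP, the platelet form of phosphofructokinase, was at 180 CPM in cluster 0, 290 in cluster 1, 256 in cluster 2, 187 in cluster 3, 182 in cluster 4 and 117 in cluster 5. The other forms, PFKL and PFKM, were both highest in cluster 1, at 45.1 and 45.7 CPM, and both lowest in cluster 2, at 26.3 and 16.9. Intervals of PFKM overlapped between clusters 2 and 0 (14.9 to 19.2 and 16.6 to 19.2). In the 20% library PFKM was lowest in cluster 5 (13.5), with cluster 2 at 20.8. ALDOA, the main aldolase, spanned 14.2 to 28.3 CPM and ALDOC, the brain form, 2.64 to 16.1. Of the 38 genes, ALDOA differed most between the libraries, by a median of 0.55 on the log2 scale. It was lowest in cluster 2 in the 80% library, but at 33.9 CPM there in the 20% library, where it spanned 20.3 (cluster 5) to 50.4 (cluster 3). The reason for the low level of ALDOA was not tested. TPI1, which interconverts the triose phosphates, spanned 584 to 1157 CPM, 1.98-fold.

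GAPDH, often used as a reference gene, was at 3977 CPM in cluster 0, 3929 in cluster 1, 3329 in cluster 2, 3436 in cluster 3, 2930 in cluster 4 and 4083 in cluster 5. Its 1.39-fold range was the narrowest of the 38 genes. PGK1, which makes the first ATP of the pathway, was at 642 CPM in cluster 0, 668 in cluster 1, 633 in cluster 2, 982 in cluster 3, 965 in cluster 4 and 1233 in cluster 5. Its clusters fell into a lower trio (0, 1 and 2) and a higher trio (3, 4 and 5), as they did in the 20% library (546 to 603 and 917 to 1098 CPM). PGAM1, a phosphoglycerate mutase, spanned 196 to 384 CPM.

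Enolase and pyruvate kinase end the path to pyruvate. ENO1, the common enolase, was at 1849 CPM in cluster 0, 2201 in cluster 1, 1358 in cluster 2, 1738 in cluster 3, 1415 in cluster 4 and 1851 in cluster 5. ENO2, the neuronal enolase, was at 28.7 CPM in cluster 0, 3.55 in cluster 1, 20.1 in cluster 2, 19.2 in cluster 3, 12.8 in cluster 4 and 39.4 in cluster 5. Cluster 1 thus had the most ENO1 and the least ENO2, and ENO2 took 0.161% of the UMIs on the pair there against 0.894% to 2.09% elsewhere. PKM was at 973 CPM in cluster 0, 530 in cluster 1, 1018 in cluster 2, 936 in cluster 3, 793 in cluster 4 and 604 in cluster 5, so it was lowest in clusters 1 and 5. The 11.1-fold range of ENO2 (12.6-fold in the 20% library) rested on 68 UMIs in cluster 1, at 16.9% of its level over all nuclei. Leading genes of other clusters had a median of 9.38% there (range 1.12% to 51.5%). GAPDH, ENO1, PGK1, PKM, TPI1, LDHA and LDHB have many processed copies in the genome, and reads that such copies share are a limit on their counts.

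Fructose 2,6-bisphosphate, made by the PFKFB enzymes, switches phosphofructokinase on. PFKFB3 was highest in the A549-like cluster at 94.9 CPM and spanned 38.2 to 50.1 CPM in the other 5. PFKFB4 was at 5.50 CPM in cluster 0, 14.7 in cluster 1, 4.74 in cluster 2, 17.1 in cluster 3, 30.1 in cluster 4 and 9.55 in cluster 5. PFKFB4 took 4.76% of the UMIs on the pair in cluster 2 and 41.5% in cluster 4. Cluster 2 had the most PFKFB3 and the least PFKFB4. Cluster 4 had the most PFKFB4 with PFKFB3 at 42.4 CPM, and cluster 3 had the least PFKFB3 with PFKFB4 at 17.1 CPM. Intervals of PFKFB4 overlapped between clusters 2 and 0 (3.69 to 5.99 and 4.81 to 6.26). The range of PFKFB4 was 6.36-fold, and 9.70-fold without nuclei called doublets.

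Lactate dehydrogenase and the lactate transporters held the largest difference of the abundant enzymes. LDHA, the form known for turning pyruvate into lactate, was at 1011 CPM in cluster 0, 989 in cluster 1, 886 in cluster 2, 1226 in cluster 3, 1555 in cluster 4 and 933 in cluster 5. LDHB, the heart form, was at 907 CPM in cluster 0, 3885 in cluster 1, 1287 in cluster 2, 993 in cluster 3, 983 in cluster 4 and 1352 in cluster 5. LDHA moved within 1.76-fold, whereas LDHB in cluster 1 (3857 to 3913) was 2.87-fold above the next cluster, and 4.28-fold above the lowest (4.53-fold in the 20% library). Over the alternatives this range of LDHB ran from 3.98-fold with ATAC clusters, just under the 4-fold limit, to 4.75-fold with another clustering seed. LDHB took 79.7% of the UMIs on the pair in cluster 1, 59.2% in clusters 2 and 5, and 38.7% to 47.3% in clusters 0, 3 and 4. SLC16A1 (MCT1), a transporter of lactate and pyruvate, was at 69.5 CPM in cluster 0, 223 in cluster 1, 70.1 in cluster 2, 126 in cluster 3, 157 in cluster 4 and 178 in cluster 5. SLC16A3 (MCT4), the transporter known for lactate export and hypoxia induction, spanned 42.4 to 93.5 CPM and was highest in cluster 0. Its interval there (90.6 to 96.5) overlapped those of clusters 3 and 5, and in the 20% library clusters 4 and 0 were at 105 and 104 CPM. SLC16A1 and LDHB were thus both highest in cluster 1, and SLC16A1 took 80.6% of the UMIs on the transporter pair there and 42.6% in cluster 0.

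Pyruvate dehydrogenase kinases switch off the entry of pyruvate into the mitochondrial cycle. PDK1, a HIF target, was at 27.7 CPM in cluster 0, 56.4 in cluster 1, 22.5 in cluster 2, 40.0 in cluster 3, 47.0 in cluster 4 and 77.7 in cluster 5. PDK3, encoded on chromosome X, was at 25.6 CPM in cluster 0, 3.03 in cluster 1, 21.9 in cluster 2, 29.4 in cluster 3, 33.2 in cluster 4 and 23.7 in cluster 5. PDK3 was close to even in 5 clusters and low in cluster 1 alone, where the next lowest cluster was 7.22-fold higher. It was found in 3.62% of nuclei of cluster 1 and in 18.8% to 40.4% elsewhere, or in 1.26% and 10.4% to 14.3% after thinning to 5000 UMIs. The 58 UMIs there were 14.3% of its level over all nuclei, beside a median of 9.38% for leading genes of other clusters (range 1.12% to 51.5%). The 20% library gave 3.09 CPM in cluster 1. Accessibility at the PDK3 start was 9.0 ATAC counts per 1000000 in cluster 1 and 21.1 to 29.7 in the others. In cluster 1, counts within 5 Mb away from gene starts stood at -1.06 on the log2 scale against the mean of the other clusters. Chromosome X as a whole stood at -0.71 there, so the lower counts were not confined to the region of PDK3.

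Carbonic anhydrases at the cell surface handle the acid that glycolysis makes. CA12 was at 99.4 CPM in cluster 0, 19.8 in cluster 1, 735 in cluster 2, 44.2 in cluster 3, 60.1 in cluster 4 and 17.2 in cluster 5. CA9, a classic marker of hypoxia, was at 69.5 CPM in cluster 0, 6.79 in cluster 1, 19.6 in cluster 2, 7.74 in cluster 3, 66 in cluster 4 and 7.47 in cluster 5. CA12 was 7.39-fold higher in the A549-like cluster than in any other, and CA9 was high in clusters 0 and 4, which could not be told apart by their intervals (67.0 to 72.1 and 59.6 to 73.0). In the 20% library CA12 was at 756 CPM in cluster 2, and CA9 at 63.9 and 73.4 CPM in clusters 0 and 4 and at 0 in cluster 5, where the limit set for a count of 0 was 3 UMIs. For CA12 the ratio to ALDH1A1, which free RNA from A549-like nuclei would keep, was 0.137 in cluster 2, 0.149 in cluster 5, 0.218 to 0.285 in clusters 1, 3 and 4 and 0.506 in cluster 0. The ratio in cluster 5 was thus close to that of the A549-like cluster. The range of CA12 was 42.6-fold, 37.2-fold in the 20% library and 81.1-fold without nuclei called doublets.

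Among secreted peptides, VEGFA, the main angiogenic factor, was at 89.3 CPM in cluster 0, 20.1 in cluster 1, 14.7 in cluster 2, 79.5 in cluster 3, 57.4 in cluster 4 and 79.1 in cluster 5. ADM, the vasodilator adrenomedullin, was at 16.4 CPM in cluster 0, 7.26 in cluster 1, 37.0 in cluster 2, 4.76 in cluster 3, 19.2 in cluster 4 and 18.9 in cluster 5. VEGFA was low in clusters 1 and 2 and at 57.4 CPM or more in the other 4, and ADM was highest in the cluster where VEGFA was lowest. VEGFA in cluster 2 stood at 24.3% of its level over all nuclei. Leading genes of the other clusters had a median of 22.4% there (range 1.76% to 59.2%). This low level of VEGFA and RNA from other nuclei thus cannot be told apart. Their ranges were 6.08-fold and 7.77-fold, and 5.70-fold and 13.4-fold in the 20% library, where ADM had 3 UMIs in cluster 3.

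The remaining hypoxia response genes included EGLN3, with a 6.13-fold range, and 6 genes that ranged less than 4-fold. NDRG1, a stress response gene, was at 66.8 CPM in cluster 0, 91.7 in cluster 1, 34.2 in cluster 2, 27.9 in cluster 3, 53.8 in cluster 4 and 40.3 in cluster 5. BNIP3, which promotes removal of mitochondria, was at 88.9 CPM in cluster 0, 70.8 in cluster 1, 70.0 in cluster 2, 115 in cluster 3, 100 in cluster 4 and 150 in cluster 5. EGLN3, a prolyl hydroxylase that HIF itself induces, was at 26.0 CPM in cluster 0, 6.58 in cluster 1, 12.7 in cluster 2, 16.5 in cluster 3, 40.3 in cluster 4 and 39.2 in cluster 5. EGLN3 was lowest where HIF1A was lowest, in cluster 1, but NDRG1 was highest there. EGLN3 in cluster 5 was lower in the 20% library, at 18.6 CPM on 11 UMIs. BNIP3L spanned 62.6 to 126 CPM, P4HA1, a collagen prolyl hydroxylase, 74.1 to 142, ERO1A, an oxidase of the endoplasmic reticulum, 85.3 to 215, and ANKRD37 4.06 to 10.2. Cluster 2 was the lowest for all 4.

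Among the carbonic anhydrases, secreted peptides, EGLN3, PDK1 and NDRG1, the highest cluster was 0 for CA9 and VEGFA, 2 for CA12 and ADM, 4 for EGLN3, 5 for PDK1 and 1 for NDRG1. Intervals did not separate clusters 0 and 4 for CA9, which was highest in cluster 4 in the 20% library, nor clusters 4 and 5 for EGLN3. For VEGFA the intervals of clusters 0 and 5 overlapped (86.5 to 92.2 and 71.4 to 87.5). Cluster 2 was the lowest for VEGFA, PDK1, HK2, PFKFB4, BNIP3, BNIP3L, P4HA1, ERO1A and ANKRD37, and it was also the lowest in the 20% library for these genes other than ANKRD37. The 48 further pathway genes, a fixed list, gave 36 that passed the filter, and 13 of these differed at least 4-fold, beside the 23.9% of all genes tested. Among the 13 were PDK4, a pyruvate dehydrogenase kinase read at 94.3 CPM in cluster 2 and at most 5.42 elsewhere, and LOX, a collagen cross-linking enzyme at 245 CPM in cluster 4 and 9.97 in cluster 1. GYS1, glycogen synthase, was at 74.5 CPM in cluster 1 and 12.2 to 17.1 elsewhere. TXNIP, which restrains glucose uptake, spanned 11.0 to 206 CPM and STC2, a secreted glycoprotein, 12 to 141. Both were low in clusters 1 and 2, where intervals overlapped (9.53 to 12.6 and 11.3 to 15.0 for TXNIP, 10.5 to 13.7 and 10.4 to 14.0 for STC2). In cluster 1 TXNIP and STC2 stood at 11.7% and 14.7% of their level over all nuclei. Leading genes of other clusters had a median of 9.38% there (range 1.12% to 51.5%). In the 20% library TXNIP was lowest in cluster 2. Also among the 13 were SLC16A7, DDIT4, PDP1, AK4, PFKFB2, EGLN2 and HKDC1, with ranges of 4.06-fold to 11.3-fold. PDK4 kept a ratio to ALDH1A1 of 0.0149 to 0.0267 in clusters 0, 1, 2, 3 and 5, beside 94.3 CPM in cluster 2.

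Accessibility at the gene start was summed over peaks that overlap the interval from a gene's first to its last annotated start, widened by 1000 bp on each side. It is given per 1000000 ATAC counts of a cluster (ATAC CPM). Where starts lie far apart, peaks between them are counted too, as with 14 peaks for PGK1 and 10 each for PFKP and PFKFB3. For PFKFB3 the mean was 118 ATAC CPM, against 42.8 at its single canonical start in GENCODE. All 38 genes had a peak there and 36 passed a mean of 10 ATAC CPM; CA9 (4.27) and CA12 (8.87) did not. Of the 36, 20 differed at least 2-fold between clusters, against 56.8% of all genes tested, and their median range was 2.07-fold against 2.14-fold. Of 34 genes that passed in RNA and in ATAC, 13 were highest in the same cluster in both, and 47.1% of all such genes were. Of the 9 among them with a 4-fold RNA range, LDHB and ADM were highest in the same cluster in both, and 54.9% of all such genes were. The count of 13 was 16 with a window of 2000 bp and 15 in the 20% library, and its difference from all genes was not tested.

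**Figure D3:**
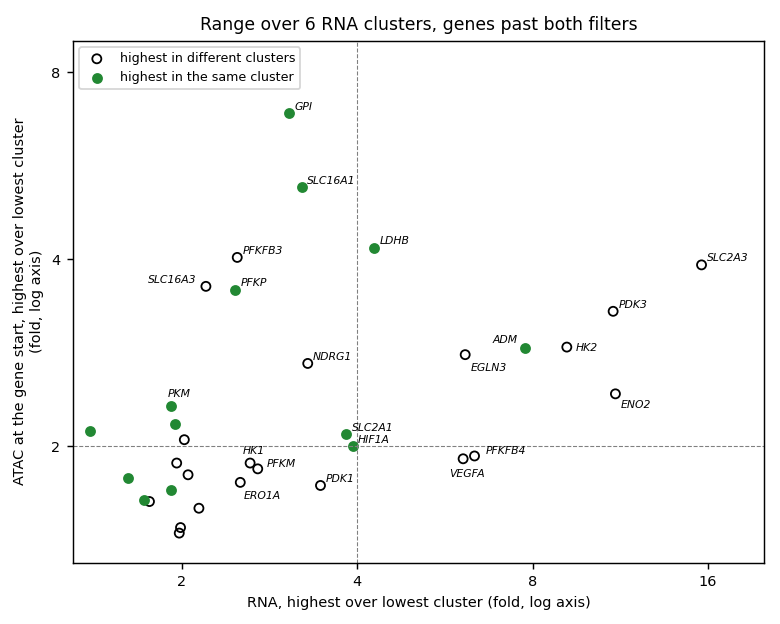
Range over the 6 RNA clusters in RNA (x axis) and in ATAC counts at the gene start (y axis), both as fold on log axes, for the 34 genes that passed both filters; green points are highest in the same cluster in both. LDHB is the single gene at 4-fold or more in both, SLC2A3 has the widest RNA range and GPI (6.88-fold) the widest ATAC range.

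Genes with wide RNA ranges often had narrow or differently ordered starts. At the VEGFA starts ATAC ran from 20.4 to 39.0 ATAC CPM. Clusters 1, 0 and 2 were close at the top (39.0, 37.1 and 35.9), while VEGFA RNA was lowest in clusters 1 and 2. In the 20% library cluster 2 was highest there at 32.5, with cluster 0 at 31.4 and cluster 1 at 28.8. At the EGLN3 start clusters 0, 1 and 2 were alike, at 24.4, 23.7 and 22.3 ATAC CPM, while EGLN3 RNA in cluster 1 was the lowest. At the PFKFB4 start cluster 1 had 87.9 ATAC CPM and cluster 4, with the most RNA, had 58.1. The A549-like cluster was highest at the CA12 start (21.6 against 2.58 to 9.61 ATAC CPM, 665 counts in all) and at the ADM starts (59.8 against 20.7 to 40.0), as in RNA.

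For several genes, accessibility of the whole neighbourhood moved with the RNA. LDHB had 109 ATAC CPM at its start (chr12:21657429-21658287) in cluster 1 and 26.0 to 41.4 in the others. In cluster 1, as log2 of the cluster over the mean of the other 5, its RNA stood at 1.81, its start at 1.77, and 296 peaks within 5 Mb that lie away from all gene starts at 1.65, whereas chromosome 12 as a whole stood at 0.21. Of 21 neighbouring genes within 5 Mb, 13 were highest in cluster 1, with a median of 1.33 on the log2 scale. SLC16A1, on chromosome 1, had 129 ATAC CPM at its start (chr1:112955848-112956671) in cluster 1 and 24.7 to 56.1 elsewhere. Its RNA stood at 0.89, its start at 1.78 and the 5 Mb around it at 1.39, and 52 of 60 neighbours were highest in cluster 1 (86.7%, against 23.7% of all genes tested). GPI had 35.1 ATAC CPM at its start (chr19:34364706-34365543) in cluster 2 and 5.10 to 18.6 elsewhere. Its RNA stood at 1.13, its start at 1.65 and the 5 Mb around it at 1.32, and 51 of 80 neighbours were highest in cluster 2. For these 3 genes the difference was thus shared by the region on both readouts, and a change in DNA copy number and a change in the activity of the region cannot be told apart with these counts.

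**Figure D4:**
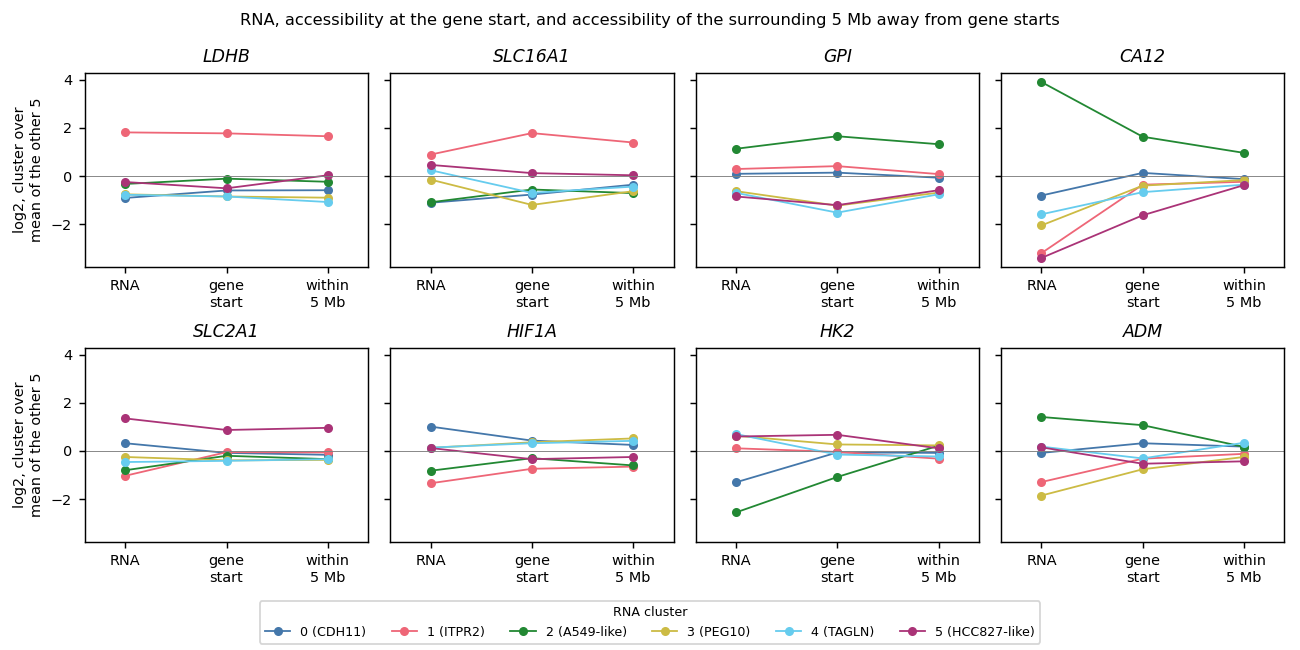
For 8 genes, log2 of a cluster over the mean of the other 5 (y axis) in RNA, in ATAC counts at the gene start and in ATAC counts within 5 Mb away from gene starts (x axis), with a line for each RNA cluster. For LDHB, SLC16A1 and GPI the highest cluster stays apart at all 3, and for CA12, HK2 and ADM the differences in RNA shrink towards the surroundings.

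Over the 36 genes tested, 11 had at least 1.5 times the mean of the other clusters in the surrounding 5 Mb in the cluster where their RNA was highest, and 17.4% of all genes tested did. Beside LDHB, SLC16A1 and GPI they were SLC2A1 and CA12 (both 0.96 on the log2 scale), PFKP (0.87), ENO1 (0.81), PGK1 (0.70), PKM (0.64), ENO2 (0.63) and TPI1 (0.62); TPI1 and ENO2 lie close together on chromosome 12. The 1.5-fold limit was chosen after the values were seen. For CA12 the RNA stood at 3.90, far above its surroundings. Of the other genes with a wide RNA range, the surroundings of SLC2A3 stood at -0.15 in cluster 1, where its RNA stood at 1.47, and those of HK2 at -0.23 in cluster 4 and 0.22 in cluster 2, where its RNA stood at 0.70 and -2.55. ADM in cluster 2 had 0.17 in its surroundings and 1.41 in RNA.

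Within a cluster, nuclei picked as high in some hypoxia response genes had 1.02 to 1.26 times the UMIs of a second list of such genes. A first list of 10 genes (CA9, CA12, NDRG1, ANKRD37, EGLN3, PDK1, PFKFB3, PFKFB4, ADM and ALDOC) picked the highest 10% of nuclei of each cluster, ties included, after thinning to 5000 UMIs, and a second list of 10 genes (BNIP3, BNIP3L, P4HA1, ERO1A, VEGFA, SLC2A1, SLC2A3, PGK1, LDHA and ENO2) was then read in them. Outside cluster 2 the first list had a mean of 1.07 to 1.88 UMIs per nucleus, and the cut was 3 or 4 UMIs. In cluster 0, 174 of the 356 high nuclei lay at the cut. With so few UMIs, counting error takes part in the choice of nuclei, so the ratios cannot measure how closely the lists vary together. In cluster 0, 356 nuclei high in the first list carried a mean of 14.5 UMIs of the second (14.1 to 14.9), and the other nuclei 11.5 (11.3 to 11.6), a ratio of 1.26. The ratio was 1.11 in clusters 1 and 5, 1.12 in cluster 3, 1.14 in cluster 4 and 1.02 in cluster 2. In cluster 2 the intervals overlapped (9.40 to 10.3 and 9.44 to 9.79), in cluster 5 they met at 14.9, and in clusters 0, 1, 3 and 4 they were apart. In cluster 3 they overlapped for the top 25% of nuclei (14.8 to 16.1 and 14.2 to 15.0) and after thinning to 3000 UMIs (8.51 to 9.98 and 8.64 to 9.23), and its high nuclei had 24.0% doublet calls against 11.4% and a median depth of 19880.5 against 17216 UMIs. Across nuclei of a cluster, the rank correlation of the 2 lists was -0.04 to 0.16, which in counts this sparse is given as a description. High nuclei had a similar full depth in cluster 0 (15895.5 against 15403 UMIs) and more doublet calls (16.6% against 6.62%); without doublets the ratio there was 1.29. CA12 supplied most of the first list in cluster 2 (a mean of 5.01 UMIs per nucleus with it and 1.17 without), and without CA12 the ratio there was 1.09.

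**Figure D5:**
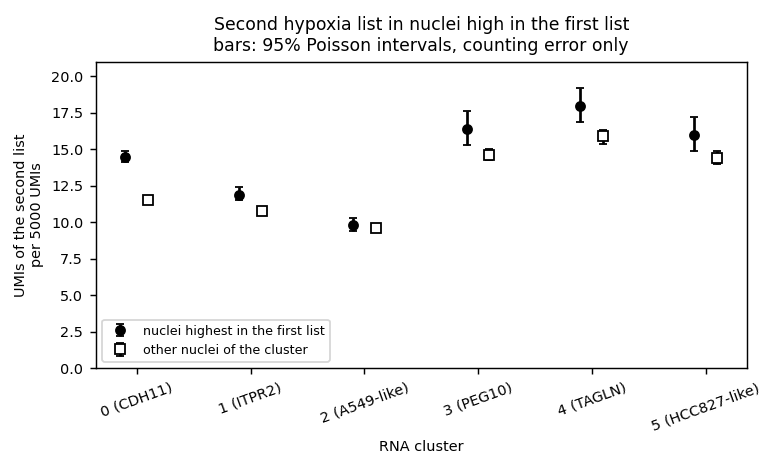
Mean UMIs of the second hypoxia list per 5000 UMIs (y axis, from 0) in nuclei high in the first list (filled circles) and in the other nuclei (open squares) of each RNA cluster (x axis), with 95% Poisson intervals that cover counting error only. The filled point lies above the open one by the most in cluster 0 (14.5 against 11.5), and both overlap in cluster 2.

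Gene by gene, the nuclei high in the first list also carried more HIF1A in all 6 clusters, by 1.07 to 1.27 times, more BNIP3L, by 1.09 to 1.48 times, and more ENO2, by 1.12 to 1.83 times. The ENO2 ratios rested on 4 UMIs in the high nuclei of cluster 4, 6 in cluster 1 and 9 in cluster 3. VEGFA was higher by 1.57 times in cluster 0 (238 UMIs in the high nuclei) and at 0.817 times in cluster 2 (11 UMIs). LDHB went the other way, with 0.783 to 0.942 times the level of the other nuclei in all 6 clusters. GPI (1.09 to 1.74 times), PGK1 (1.03 to 1.3), PKM (1.03 to 1.17) and LDHA (1.02 to 1.15) were also higher in all 6 clusters. The other genes read were not above 1 in every cluster, and ALDOA was above 1 in 2 of 6, with a median ratio of 0.732. No share over all genes and no interval is given beside these ratios, and they include nuclei called doublets. Some lay near 1, as for LDHA at 1.02 in clusters 2 and 4 and PGK1 and PKM at 1.03 in cluster 2. HIF1A was at 1.07 in cluster 1 (320 UMIs in the high nuclei) and in cluster 3 (165 UMIs). The summed genes from glucose to lactate that belong to neither list, LDHB included, had ratios of 0.967 to 1.07.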

How the data were processed

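The members and gene lists were chosen with earlier results of these data known. The authors deposited whole-number counts for each portion, UMIs per gene and ATAC counts per peak and called nucleus, made with Cell Ranger ARC 2.0.0 on GRCh38, by the submitters' processing notes; parameters are not given in the sources used here. ATAC counts were mostly even (90.1% of nonzero values), the pattern of counted fragment ends. Long-read counts were not used here.

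Nuclei were clustered on RNA with Seurat 5.3.0 (R 4.3.3; 2000 variable genes without the members and pathway genes, 30 principal components, 20 neighbours, Louvain, seed 0, resolution 0.1). Nuclei of the 20% library were placed by correlation with cluster means of the 80% nuclei. The rule returned 98.0% of those same 80% nuclei to their own cluster, which does not measure how well the 20% nuclei were placed. Scrublet (scanpy 1.11.5) called 385 nuclei doublets, which were kept in the main values. UMIs or ATAC counts were summed by cluster and scaled to 1000000; genes needed a mean of 10 per 1000000. Clusters under 3 counts were set at 3. Calls are folds of a fixed size without a test, since each portion had 1 library. Poisson and binomial intervals (scipy 1.17.1) are exact and cover counting error only. Genes with values in every cluster were those with a 4-fold range and a fixed list; GPI and SLC16A1 were added after their values were seen. Starts are the intervals in the deposited feature table, 1 to 193510 bp wide. TMM factors came from edgeR 4.0.16. The fold steps were tested on simulated data. The values of 1 further pathway gene are not reported here.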

Additional observations from a re-analysis of the deposited data

How the results depend on the processing

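The 11 genes with a 4-fold range became 3 (LDHB, CA12 and VEGFA) where a mean of 30 CPM was required. The rest of the 11 had lower means and were not tested there, SLC2A3 (29.7) and CA9 (29.5) by a narrow margin. At the main filter, a larger share of the set than of all genes had this range (11 of 36 against 23.9%). With 30 CPM required, the share of the set was below that of all genes. The count was 10 to 13 under the other alternatives. The highest share of UMIs on the 38 genes (1.53%) was 1.52% in ATAC clusters, 1.56% with median-of-ratios size factors and with TMM factors, 1.5% in the 20% library and 1.54% after thinning to 5000 UMIs. The lowest share (1.196%) was 1.21% with at least 5 clusters, 1.18% with size factors and 1.15% with TMM factors. The ratio of the second hypoxia list was 0.962 in its lowest cluster and 1.20 in its highest for the top 25% of nuclei, and 0.977 in the lowest after thinning to 3000 UMIs. Leaving out CA12 and doublets together gave 1.09 in the lowest cluster; this alternative, its 2 single steps and the canonical GENCODE starts were chosen after seeing the data. The cause of these shifts was not tested. Of 187 comparisons with an alternative 156 stayed within their limits and 31 moved; the ratios of 0.962 and 0.977 lie below 1, where the main value of 1.02 lies above it. With canonical starts, 20 genes had a 2-fold ATAC range and 14 were highest in the same cluster in both readouts. No paired analysis was possible because there was 1 library per portion and assay. Low levels rest on few UMIs (20 for SLC2A3 in cluster 5, 43 for ADM in cluster 3), and spread between cultures cannot be had from these libraries.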

Other observations

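Other clustering seeds divided cluster 0 into parts of 1401 and 1065 nuclei. None of the 34 genes of the set compared differed 2-fold between the parts, beside 2.06% of 10307 genes tested, and the share of UMIs on the set was 1.33% and 1.32%. SLC2A1 was at 92.7 CPM in the first part and 134 in the second, and PGK1 at 563 and 778. Cell cycle genes took 1.04% and 0.743% of UMIs in the parts, and their part in these values was not tested.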
